A study of Homo sapiens with 20 samples.

Results

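Epithelial and mesenchymal state genes were followed in 4 lung cancer cell lines with and without ADAR knockout. The set holds 10 of the 58233 gene identifiers in the counts, listed by name. The 4 epithelial genes were CDH1, EPCAM, ESRP1 and GRHL2, and the 6 mesenchymal genes were CDH2, VIM, ZEB1, ZEB2, SNAI2 and AXL. RNA-seq had been made from A549 and NCI-H1650 (lung adenocarcinoma), HCC366 (lung adenosquamous carcinoma) and NCI-H196 (variant small cell lung cancer). All cells carried Cas9 with 1 sgRNA, aimed at GFP (control) or at ADAR, which encodes the RNA-editing enzyme ADAR1. HCC366, NCI-H1650 and NCI-H196 were untreated, whereas A549 cells of both targets received vehicle or 10 ng/mL interferon-β (IFN-β) for 24 h. There were 20 libraries in 10 conditions, with 2 different sgRNAs (sg1 and sg2) as the 2 replicates of each condition. The replicates thus differ in guide, nothing states that they came from separate cultures, and the p values measure only the spread between these libraries. In such bulk libraries, fewer cells of a type and less RNA per cell cannot be told apart.

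Epithelial cells are held together by junctions built on E-cadherin, the product of CDH1. During epithelial-mesenchymal transition these junctions are dismantled, N-cadherin (CDH2) and the intermediate filament vimentin (VIM) are gained, and the transcription factors ZEB1, ZEB2 and SNAI2 repress epithelial genes. GRHL2 is a transcription factor that maintains epithelial identity, ESRP1 directs epithelial splicing, EPCAM is an epithelial adhesion molecule, and AXL is a receptor tyrosine kinase often found on mesenchymal tumour cells. The comparisons asked where each line lies between these states, and whether ADAR knockout (KO) or IFN-β moves the genes.

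In the GRCh37 annotation, CDH1 (ENSG00000039068) lies at chr16:68771195-68869440 and EPCAM (ENSG00000119888) at chr2:47572297-47614740. VIM (ENSG00000026025) lies at chr10:17270240-17279592, ZEB1 (ENSG00000148516) at chr10:31607424-31818742, ZEB2 (ENSG00000169554) at chr2:145121931-145278624 and AXL (ENSG00000167601) at chr19:41725128-41767671. CDH2 is on chromosome 18, and ESRP1, GRHL2 and SNAI2 are on chromosome 8. All 10 are protein-coding genes.

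RefSeq promoter windows of GRCh38.p14 (250 bases before to 50 bases after a gene start) were matched for 5 of the 10 genes: CDH2 (2 windows), VIM (1), ZEB1 (7), ZEB2 (1) and AXL (2). They were searched on both strands for the E-box CACCTG, which ZEB and SNAI factors bind, and for the interferon-stimulated response element as GAAA, any 2 bases and GAAA, letters chosen after the expression values had been seen. ZEB1, ZEB2 and AXL are shown because they rose in IFN-β-treated A549 cells with ADAR sgRNAs and VIM because it passed no test there. Each line gives the 250 bases before the start, 5′ to 3′ on the gene's strand, with matches in capitals.

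ZEB1 chr10:31318167-31318416 (+): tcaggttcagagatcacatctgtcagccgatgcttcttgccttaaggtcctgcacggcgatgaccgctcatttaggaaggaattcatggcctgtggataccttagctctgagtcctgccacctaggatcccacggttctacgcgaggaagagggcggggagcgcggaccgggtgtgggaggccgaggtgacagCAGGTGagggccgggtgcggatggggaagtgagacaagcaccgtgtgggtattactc
ZEB2 chr2:144520120-144520369 (-): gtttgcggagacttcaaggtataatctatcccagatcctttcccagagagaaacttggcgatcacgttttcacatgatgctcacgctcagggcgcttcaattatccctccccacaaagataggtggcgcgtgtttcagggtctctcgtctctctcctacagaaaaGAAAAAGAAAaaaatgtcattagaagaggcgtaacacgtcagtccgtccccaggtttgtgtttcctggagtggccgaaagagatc
AXL chr19:41218973-41219222 (+): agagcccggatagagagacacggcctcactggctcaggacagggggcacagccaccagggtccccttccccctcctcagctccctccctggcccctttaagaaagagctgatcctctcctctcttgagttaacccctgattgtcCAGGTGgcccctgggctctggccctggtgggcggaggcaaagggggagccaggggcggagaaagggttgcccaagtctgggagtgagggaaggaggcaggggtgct
AXL chr19:41226505-41226754 (+): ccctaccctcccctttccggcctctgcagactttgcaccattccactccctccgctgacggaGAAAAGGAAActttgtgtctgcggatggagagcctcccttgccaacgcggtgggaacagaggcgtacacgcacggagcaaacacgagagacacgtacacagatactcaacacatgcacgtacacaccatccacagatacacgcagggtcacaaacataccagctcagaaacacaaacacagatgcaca
VIM chr10:17227991-17228240 (+): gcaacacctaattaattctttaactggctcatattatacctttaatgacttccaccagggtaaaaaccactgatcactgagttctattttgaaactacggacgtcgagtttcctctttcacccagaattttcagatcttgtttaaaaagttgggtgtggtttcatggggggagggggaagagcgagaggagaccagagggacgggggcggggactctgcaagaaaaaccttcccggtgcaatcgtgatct

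ZEB1 showed CAGGTG, the reverse complement of CACCTG, 57 bases before its start in this window. ZEB2 showed GAAAAAGAAA 85 bases before its start. The first AXL window held CAGGTG at 106 bases and the second held GAAAAGGAAA at 188 bases before the start. Another ZEB1 window held 3 E-box matches and another TTTCTCTTTC, the response element on the other strand, while the VIM and CDH2 windows held no match. Of all 35116 windows in the table, 20.6% held the E-box and 3.57% the response element. A match describes the letters and does not show that a factor binds.

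Depth ranged from 62679 to 19520189 reads on genes per library (median 6411279). Levels are in CPM (the usual unit of counts scaled to library size). NCI-H196 GFP sg2 was the shallowest library, where 1 read is worth 15.95 CPM before TMM scaling, and in HCC366 ADAR sg2 85.6% of alignments were not unique. ADAR itself did not overlap between targets and was lower with ADAR sgRNAs in every condition, from a log2 fold change of −1.29 in NCI-H1650 to −0.41 in NCI-H196. IFN-β raised ADAR RNA in A549, by a log2 fold change of 1.47 with GFP and 1.95 with ADAR sgRNAs. In HCC366 the decrease of ADAR was −0.84 ± 0.31 (SE) with an adjusted p of 0.208 by edgeR, so it did not pass the test. The tissue labels were weakly matched by markers, given as the CPM summed over each list in GFP libraries. The 4 lung adenocarcinoma markers summed to 1.58 to 1.88 CPM in NCI-H1650 and 1.02 to 1.81 in A549, beside 4.29 to 4.82 in HCC366. The 4 squamous markers summed to 1.43 to 1.87 CPM in HCC366, where DSG3 had no read, and to 175 to 177 CPM in NCI-H1650. The 5 neuroendocrine markers summed to 0 to 2.43 CPM in NCI-H196, with reads of 2 of them, and to 14.6 to 18.9 CPM in NCI-H1650. Of the 5 leukocyte markers, 2 or 3 had a read in each line, and they summed to 0 to 7.76 CPM in GFP and 0.123 to 10.5 CPM in ADAR libraries, with CD3E and LYZ at 0.

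The 4 lines occupied different positions at baseline, that is, with GFP sgRNAs and without IFN-β. NCI-H1650 had the highest level of all 4 epithelial genes. NCI-H196 had the highest level of VIM, ZEB1, ZEB2 and SNAI2, shared that of CDH2 with A549, and A549 had the highest level of AXL. HCC366 had few reads of the epithelial genes and also few of CDH2 and VIM. Levels between lines are given as CPM scaled by TMM, a method that equalises library composition, over all 20 libraries. Of the 10 genes, edgeR's quasi-likelihood test called 10 between NCI-H196 and NCI-H1650 (46.7% of all genes tested were called), 10 between A549 and NCI-H1650 (53.8%) and 9 between HCC366 and NCI-H1650 (41.0%). It called 8 between NCI-H196 and HCC366 (43.2%), 7 between NCI-H196 and A549 (57.8%) and 7 between A549 and HCC366 (50.8%). In the last 3 of these comparisons GRHL2 had no read on either side and was left out, so 9 genes were tested. Without NCI-H196 GFP sg1, which leaves only the shallowest library, 4 genes were called against A549, 4 against HCC366 and 8 against NCI-H1650. A line and the preparation of its libraries cannot be told apart in this design.

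**Figure D1:**
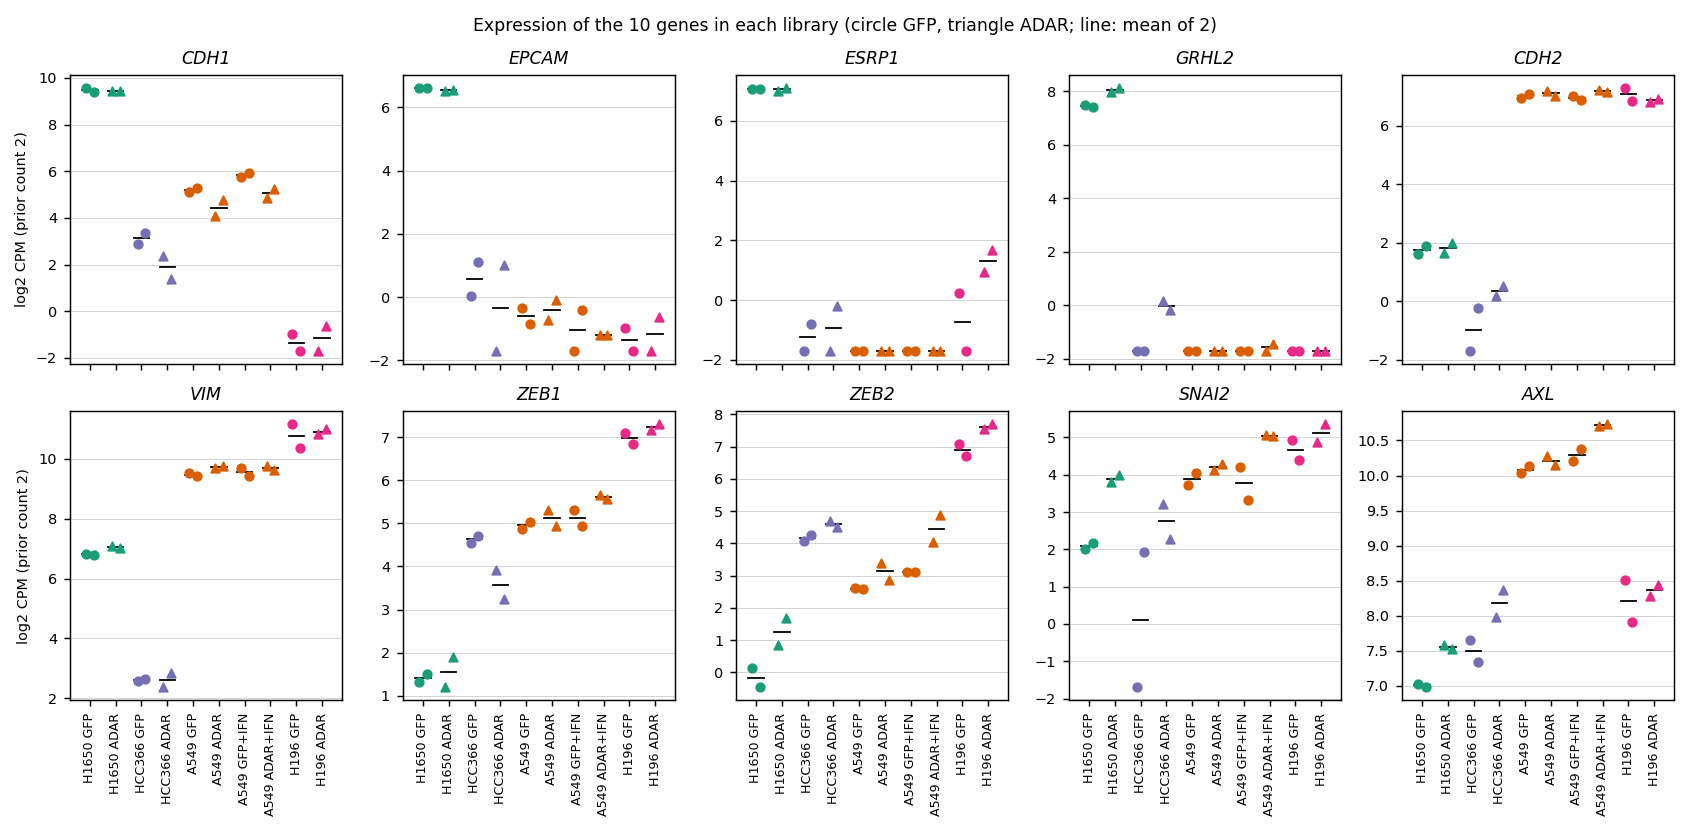
Level of each of the 10 genes in each of the 20 libraries, as log2 CPM with a prior count of 2 and TMM over all libraries (vertical axis), by line and condition (horizontal axis). Circles are GFP libraries, triangles are ADAR libraries and black lines are the means of 2. The 4 epithelial genes stand highest in NCI-H1650, while CDH1 in A549 lies between NCI-H1650 and the other lines.

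CDH1 gave 766 and 678 CPM in the GFP sg1 and sg2 libraries of NCI-H1650, 34.7 and 38.2 in A549, and 7.15 and 9.91 in HCC366. In NCI-H196 it gave 0.194 and 0 CPM, from 2 reads in all. The values of the 4 lines did not overlap, and each step of the order NCI-H1650, A549, HCC366, NCI-H196 passed the test (adjusted p = 1.62e-17, 3.09e-07 and 4.24e-08, edgeR). In NCI-H196 GFP sg2, 1 read was worth 15.95 CPM before TMM scaling, more than either HCC366 value. The 0 in that library cannot place NCI-H196 below HCC366, so the last step rests on GFP sg1. The ratio of CDH1 levels, from summed reads, between NCI-H1650 and NCI-H196 was 3761, with a 95% counting interval from 1041 to 31064. Such intervals cover counting error only.

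EPCAM gave 97.4 and 98.1 CPM in NCI-H1650. It was at 0.715 and 1.87 CPM in HCC366, 0.479 and 0.249 in A549, and 0.194 and 0 in NCI-H196. NCI-H1650 stood above all other libraries, HCC366 exceeded A549 (adjusted p = 0.0283, edgeR), and A549 and NCI-H196 did not differ beyond their spread (adjusted p = 0.608, edgeR). The call between HCC366 and A549 was lost without HCC366 GFP sg2 (adjusted p = 0.723, edgeR) or A549 GFP sg2 (0.186).

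GRHL2 was read in 1 line at baseline. It gave 181 and 169 CPM in NCI-H1650 and no read in the GFP libraries of HCC366, vehicle-treated A549 and NCI-H196. Taking 3 reads over both libraries as the limit that a count of 0 allows, GRHL2 was at least 299-fold higher in NCI-H1650 than in HCC366, at least 1068-fold higher than in A549 and at least 606-fold higher than in NCI-H196.

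ESRP1 followed the same division, with 134 CPM in each NCI-H1650 library. It had 1 read in all in HCC366, 9 reads in NCI-H196 GFP sg1 with none in sg2, and none in A549, so NCI-H1650 was at least 819-fold above A549. NCI-H196 and HCC366 did not differ beyond their spread (adjusted p = 0.166, edgeR), nor did HCC366 and A549 (adjusted p = 0.136). NCI-H196 exceeded A549 in the fit (adjusted p = 0.000467), but the call rests on GFP sg1: without that library ESRP1 had no read on either side.

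CDH2 gave 157 and 115 CPM in NCI-H196, 123 and 134 in A549, 2.76 and 3.35 in NCI-H1650, and 0 and 0.535 in HCC366. NCI-H196 and A549 overlapped and did not differ beyond their spread (adjusted p = 0.311). Both exceeded NCI-H1650, which in turn exceeded HCC366 (adjusted p = 0.00167, edgeR). VIM gave 2277 and 1318 CPM in NCI-H196, 728 and 688 in A549, 113 and 110 in NCI-H1650, and 5.72 and 5.89 in HCC366. Every neighbouring pair differed, the last by a log2 fold change of −4.26 ± 0.29 (SE, HCC366 minus NCI-H1650, adjusted p = 5.35e-14, edgeR). HCC366 was thus below NCI-H1650 in CDH2 and VIM although its CDH1 was also lower.

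ZEB1 and ZEB2 separated HCC366 from NCI-H1650 in the other direction, and SNAI2 did not separate them. ZEB1 gave 136 and 115 CPM in NCI-H196, 29.1 and 32.6 in A549, 22.9 and 26.0 in HCC366, and 2.17 and 2.51 in NCI-H1650. A549 and HCC366 did not differ beyond their spread (adjusted p = 0.242), and HCC366 exceeded NCI-H1650 by a log2 fold change of 3.40 ± 0.33 (SE, adjusted p = 2.41e-10, edgeR). ZEB2 gave 135 and 105 CPM in NCI-H196, 16.4 and 18.7 in HCC366, 5.75 and 5.72 in A549, and 0.789 and 0.418 in NCI-H1650. All steps of that order passed the test, with HCC366 above A549 (adjusted p = 2.43e-05). SNAI2 gave 30.2 and 20.9 CPM in NCI-H196, 12.9 and 16.1 in A549, 3.75 and 4.18 in NCI-H1650, and 0 and 3.48 in HCC366. The 20.9 CPM came from GFP sg2, at 15.95 CPM a read before TMM scaling, so the step of SNAI2 above A549 rests mainly on GFP sg1. With 1 library left out, the log2 fold change of that step ranged from 0.50 to 1.19. NCI-H1650 and HCC366 did not differ in SNAI2 beyond their spread (adjusted p = 0.371, edgeR).

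AXL was read in every library and varied least between lines in fold. It gave 1045 and 1125 CPM in A549, 365 and 241 in NCI-H196, 202 and 161 in HCC366, and 130 and 126 in NCI-H1650. Every neighbouring pair differed, with the smallest step between HCC366 and NCI-H1650 (log2 fold change 0.49 ± 0.19, SE; adjusted p = 0.0347, edgeR). That call was lost without any 1 of the 4 libraries: HCC366 GFP sg1 (adjusted p = 0.367) or sg2 (0.0642), or NCI-H1650 GFP sg1 (0.154) or sg2 (0.217).

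Divided by the length of the canonical transcript, which allows levels of different genes to be compared, CDH1 was the most abundant of the epithelial genes in NCI-H1650, at 150 ± 12.95 CPM per kilobase (SD, n = 2). EPCAM followed at 63.2, ESRP1 at 35.6 and GRHL2 at 33.4 CPM per kilobase. VIM led in NCI-H196 at 835 ± 315 and in A549 at 329 ± 12.9 CPM per kilobase (SD, n = 2), where AXL was next at 230. In HCC366 AXL led at 38.5 ± 6.01 CPM per kilobase (SD, n = 2), above ZEB1 at 4.11 and VIM at 2.69.

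The mean log2 CPM of the 4 epithelial genes minus that of the 6 mesenchymal genes placed the lines on 1 axis, as a description without a test. The score was 4.51 ± 0.04 (SD, n = 2) in NCI-H1650, −2.81 ± 0.17 in HCC366, −6.03 ± 0.14 in A549 and −8.70 ± 0.24 in NCI-H196. A gene without reads takes a value set by the prior count of 2, as GRHL2 did in HCC366, A549 and NCI-H196. In NCI-H196 GFP sg2 no epithelial gene had a read, so its epithelial mean of −1.69 is that value alone. The scores and SDs of these lines thus depend in part on the prior count. HCC366 and A549 had epithelial means of 0.19 and 0.31, and their scores differ through the mesenchymal means, 3.01 in HCC366 and 6.33 in A549. The plot of both means shows these positions for all libraries.

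**Figure D2:**
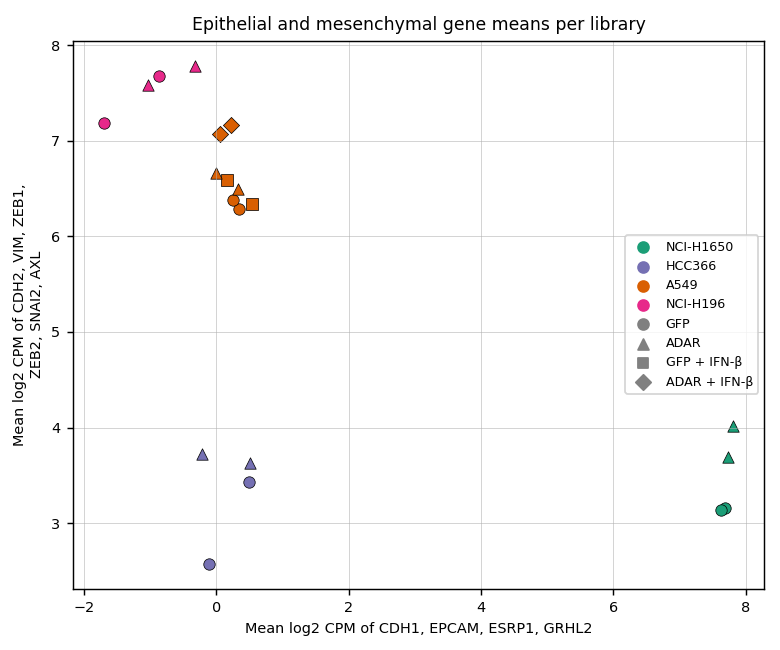
Mean log2 CPM (prior count 2) of the 4 epithelial genes (horizontal axis) against that of the 6 mesenchymal genes (vertical axis), with 1 point per library, coloured by line and shaped by sgRNA target and IFN-β. NCI-H1650 stands alone on the right, HCC366 is low on both axes, and in A549 the ADAR libraries with IFN-β have the highest mesenchymal means, 7.12 on average against 6.33 for GFP with vehicle. Mesenchymal means were also higher with ADAR than GFP sgRNAs in NCI-H1650 (3.86 against 3.15) and HCC366 (3.67 against 3.01). The 2 HCC366 GFP libraries stood at 2.58 and 3.44. In NCI-H196 the means were 7.68 and 7.43, but the libraries overlapped, at 7.58 and 7.79 with ADAR and 7.68 and 7.18 with GFP sgRNAs. The epithelial mean of NCI-H196 was higher with ADAR sgRNAs too, at −0.68 against −1.27. None of these differences was tested.

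Genes from lists of junction proteins, keratins, epithelial regulators and epithelial surface proteins were also measured. Against NCI-H1650, HCC366 was lower in 16 of 17 tested junction genes and 8 of 8 surface genes, and higher in none of them, where 22.6% of all genes tested were lower and 18.4% higher. The median log2 fold change of the junction genes was −2.19, beside −0.07 over all genes. CLDN7, a tight junction claudin, was at 0.13 CPM in HCC366 and 103 CPM in NCI-H1650. Keratins divided the lines differently. KRT8, a keratin of simple epithelia, was at 1715 CPM in HCC366, 2448 in A549, 2449 in NCI-H1650 and 30.7 in NCI-H196, so that the lines with few CDH1 reads were not alike in keratin level. KRT19, by contrast, was at 426 CPM in NCI-H1650 and had no read in HCC366 GFP cells.

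The mesenchymal list gave no single order of the lines. NCI-H196 exceeded A549 in 14 of 20 matrix and cytoskeleton genes and was lower in 3 (30.2% of all genes were higher and 27.6% lower), with a median log2 fold change of 2.76 beside 0.07 over all genes. SPARC, a matrix glycoprotein, was at 561 CPM in NCI-H196 and 2.48 in A549, whereas TGFBI, another matrix protein, was at 7.43 in NCI-H196, 2368 in A549 and 3570 in HCC366. HCC366, low in VIM and CDH2, was higher than NCI-H1650 in 8 of the 20 genes and lower in 7, beside 18.4% and 22.6% of all genes. PRRX1, a mesenchymal transcription factor, was at 179 CPM in NCI-H196 and had no read in A549 or HCC366 GFP cells.

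**Figure D3:**
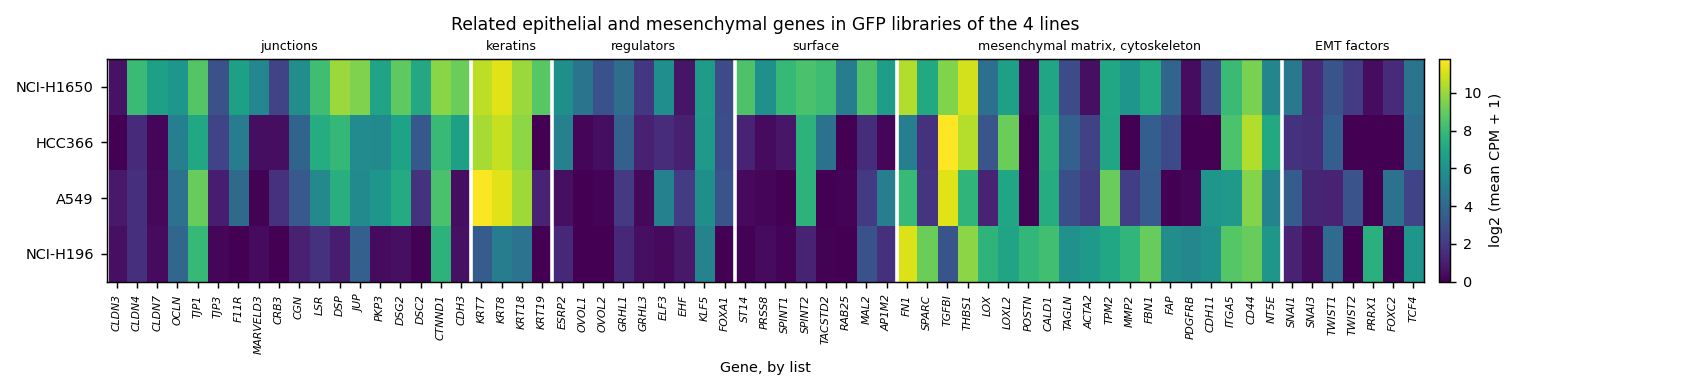
Mean level of the related genes in the 2 GFP libraries of each line, as the log2 of mean CPM plus 1 (colour), by gene and list (horizontal axis) and line (vertical axis). KRT7, KRT8 and KRT18 are bright in 3 lines and dark in NCI-H196, while most surface genes are bright in NCI-H1650 alone.

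Over the 10 condition means, the genes whose levels followed CDH1 most closely among 7390 variable genes were PSD4 (r = 0.992), IL27RA (0.985), CHMP2B (0.979), B3GNT3 (0.979) and SP6 (0.977). For VIM they were ATP8B2 (r = 0.996), FKBP10 (0.994), MAGED2 (0.985), CDH11 (0.984) and GSTZ1 (0.983). These correlations describe 4 lines, since conditions of 1 line share their cells, and most of the variation lies between lines.

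In NCI-H1650, the line with the highest CDH1, SNAI2, GRHL2 and AXL rose with ADAR KO, while CDH1, EPCAM and ESRP1 passed no test. Levels from here on are CPM scaled by TMM within the line. SNAI2 was at 4.19 and 4.78 CPM with GFP sgRNAs and at 15.4 and 17.3 CPM with ADAR sgRNAs. The groups did not overlap, and the log2 fold change was 1.86 ± 0.26 (SE, 3.63-fold, adjusted p = 3.84e-07, edgeR). GRHL2 rose from 202 and 193 to 283 and 313 CPM, a log2 fold change of 0.59 ± 0.10 (SE, adjusted p = 3.24e-05, edgeR). AXL rose from 146 and 144 to 214 and 206 CPM, a log2 fold change of 0.54 ± 0.10 (SE, adjusted p = 0.000219, edgeR). With all 20 libraries in 1 fit only SNAI2 was called (GRHL2 adjusted p = 0.106, AXL 0.253). A mesenchymal factor, an epithelial factor and a receptor therefore rose together. Across the transcriptome 8.6% of genes were called, 6.18% as higher, against 3 of the 9 genes tested here, with ZEB2 too low to test. CDH1 was at 857 and 774 CPM with GFP sgRNAs and at 770 and 771 CPM with ADAR sgRNAs. Its log2 fold change was −0.08 ± 0.10 (SE, adjusted p = 0.691, edgeR). VIM, at 127 and 126 against 151 and 145 CPM, did not pass either (adjusted p = 0.189). ZEB2 was at 0.882 and 0.478 CPM with GFP and 1.67 and 3.203 CPM with ADAR sgRNAs.

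Other epithelial regulators were called in the same comparison. KLF5 rose by a log2 fold change of 0.72 ± 0.11 (SE, adjusted p = 3.92e-06, edgeR), ELF3 by 0.56 and OVOL1 by 0.49, so that 3 of 8 tested regulators rose and none fell, where 6.18% of all genes rose and 2.42% fell. Of 17 junction genes 1 fell, DSG2, a desmosomal cadherin, and of 17 matrix and cytoskeleton genes 1 fell, SPARC. No keratin or surface gene was called by edgeR.

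In HCC366, 0 of the 4 tested genes passed (background 1.25%), and 6 were too low to test. At an unadjusted p under 0.05 there were 2, beside 18.1% of all genes. CDH1 was at 7.75 and 10.6 CPM with GFP sgRNAs and at 5.25 and 2.59 CPM with ADAR sgRNAs, a log2 fold change of −1.31 ± 0.55 (SE, adjusted p = 0.256, edgeR). ZEB1 was at 24.8 and 27.8 against 15.7 and 10.3 CPM, a log2 fold change of −1.04 ± 0.42 (SE, adjusted p = 0.240, edgeR). CDH1 and the factor known to repress it thus both had lower values, without passing the test. AXL was at 218 and 173 against 272 and 374 CPM, a log2 fold change of 0.73 ± 0.33 (SE, adjusted p = 0.285, edgeR). ZEB2 was at 17.8 and 20.1 against 27.1 and 25.2 CPM (adjusted p = 0.533, edgeR). DESeq2 also called 0 genes. Without ADAR sg1, edgeR called CDH1 (adjusted p = 0.0204), ZEB1 (adjusted p = 0.00136) and AXL (adjusted p = 1.22e-05), in a fit that called 6408 of 12324 genes (52%). It called the same 3 when all 20 libraries shared 1 fit, which called 19% of all genes. Without ADAR sg2, the library with 85.6% of alignments not unique, it called 0 of the 4, at log2 fold changes of −0.86 for CDH1, −0.74 for ZEB1 and 0.51 for AXL. SNAI2 was at 0 and 3.72 against 9.62 and 5.17 CPM, from at most 13 reads a library. EHF, an epithelial regulator, was the 1 related gene called, from 0.775 and 1.43 to 13.997 and 12.3 CPM, with 1 and 5 reads in the GFP libraries (adjusted p = 0.0351, edgeR).

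In NCI-H196, ZEB2 and CDH2 passed the test in opposite directions, 2 of 6 genes tested, where 17.8% of all genes were called, 10.3% as higher and 7.5% as lower. ZEB2 was at 155 and 147 CPM with GFP sgRNAs and at 232 and 235 CPM with ADAR sgRNAs, a log2 fold change of 0.60 ± 0.10 (SE, adjusted p = 5.11e-07, edgeR). CDH2 was at 180 and 161 against 140 and 136 CPM, a log2 fold change of −0.39 ± 0.10 (SE, adjusted p = 0.00251, edgeR). The groups did not overlap for either gene, and the share of all genes without overlap was not computed. The GFP sg2 values (147 CPM of ZEB2 and 161 of CDH2) rest on few reads, at 15.95 CPM a read before TMM scaling. Both calls were lost by DESeq2 (adjusted p = 0.999 for each), without GFP sg1, ADAR sg1 or ADAR sg2, with same-numbered libraries as blocks (adjusted p = 0.332 for ZEB2 and 0.872 for CDH2), and with all 20 libraries in 1 fit (0.400 and 0.638). Leaving out the shallow GFP sg2 kept both and added VIM (log2 fold change −0.21, adjusted p = 0.00166). ZEB1 was at 156 and 161 against 179 and 178 CPM (adjusted p = 0.193, edgeR). SNAI2 was at 34.7 and 29.3 against 36.5 and 46.2 CPM (adjusted p = 0.0998), AXL at 419 and 337 against 390 and 394 CPM (adjusted p = 0.688), and VIM at 2616 and 1847 against 2254 and 2311 CPM (adjusted p = 0.691). CDH1, EPCAM, ESRP1 and GRHL2 were too low to test, with at most 0.376 CPM of CDH1 in every library. ESRP1 had 9 reads with GFP, all in sg1, and 28 with ADAR sgRNAs, at means of 0.50 ± 0.71 and 2.65 ± 0.87 CPM (SD, n = 2). The GFP mean includes the 0 of the shallow sg2, which cannot show a low level. Scaled by TMM over all 20 libraries, GFP sg1 gave 0.874 CPM, against 1.62 and 2.88 CPM with ADAR sgRNAs.

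In A549 treated with vehicle, ADAR KO moved 0 of 7 tested genes past the threshold by edgeR and by DESeq2, where 0.123% of all genes were called. EPCAM, ESRP1 and GRHL2 were too low to test in this line. At an unadjusted p under 0.05 there were 2, CDH1 and VIM, beside 4.16% of all genes. CDH1 was at 28.6 and 30.5 CPM with GFP sgRNAs and at 13.7 and 21.97 CPM with ADAR sgRNAs, a log2 fold change of −0.72 ± 0.18 (SE, adjusted p = 0.258, edgeR). The groups did not overlap, and the share of all genes without overlap was not computed. With 1 library left out, the log2 fold change of CDH1 ranged from −1.12 to −0.43. CDH1 was called when genes of low count were kept (adjusted p = 0.0316, edgeR), but not with all 20 libraries in 1 fit (adjusted p = 0.763, edgeR). VIM was at 601 and 551 against 672 and 696 CPM (adjusted p = 0.998).

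With IFN-β, ADAR KO changed 5 of the 7 genes in A549 (17% of all genes were called, 10.8% higher and 6.19% lower): 4 mesenchymal genes were higher and CDH1 was lower in ADAR than in GFP cells. CDH1 was at 44.5 and 50.2 CPM with GFP sgRNAs and at 24.3 and 32.0 CPM with ADAR sgRNAs. The log2 fold change was −0.74 ± 0.16 (SE, adjusted p = 0.00180, edgeR), close to the value with vehicle. ZEB2 was at 6.94 and 6.89 against 13.9 and 24.4 CPM, a log2 fold change of 1.49 ± 0.24 (SE, adjusted p = 5.09e-05, edgeR). SNAI2 was at 15.005 and 8.01 against 28.1 and 27.7 CPM, a log2 fold change of 1.31 ± 0.21 (SE, adjusted p = 3.97e-05, edgeR). In these genes both ADAR libraries lay above both GFP libraries. AXL was at 979 and 1097 against 1421 and 1440 CPM, a log2 fold change of 0.46 ± 0.10 (SE, adjusted p = 0.00115, edgeR). ZEB1 was at 32.6 and 24.8 against 42.7 and 39.6 CPM, a log2 fold change of 0.52 ± 0.15 (SE, adjusted p = 0.0176, edgeR). The ZEB1 call was lost without GFP sg2 (adjusted p = 0.229), ADAR sg1 (0.0818) or ADAR sg2 (0.0832). With all 20 libraries in 1 fit, AXL (adjusted p = 0.179) and ZEB1 (0.121) were not called. CDH2, at 106 and 94.95 against 127 and 119 CPM, missed the threshold (adjusted p = 0.0614), and VIM, at 679 and 568 against 738 and 670 CPM, overlapped (adjusted p = 0.248). Both passed without GFP sg1 with IFN-β (adjusted p = 0.0160 and 0.0228, edgeR).

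**Figure D4:**
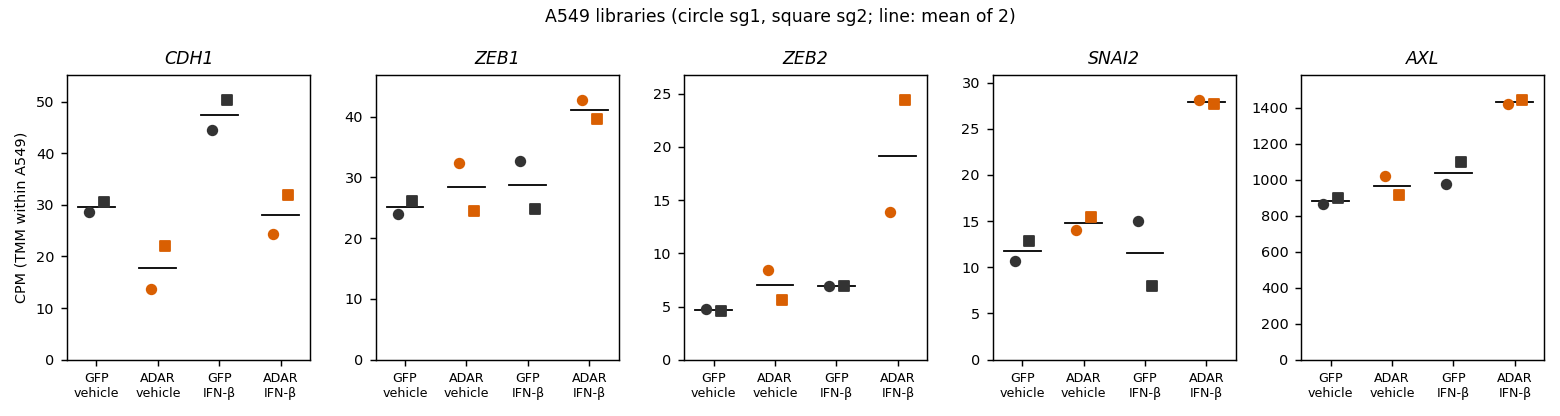
Level of 5 genes in the 8 A549 libraries, as CPM scaled by TMM within the line (vertical axis, starting at 0), by condition (horizontal axis), with circles for sg1, squares for sg2 and lines for the mean of 2. CDH1 is lower in ADAR than in GFP libraries with vehicle and with IFN-β and higher with IFN-β for either target, and ZEB2, SNAI2 and AXL are highest in ADAR cells with IFN-β.

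The effect of IFN-β itself can be read within each target. In GFP cells CDH1 was the only 1 of the 7 genes called under IFN-β, with a log2 fold change of 0.68 ± 0.17 (SE, adjusted p = 0.00784, edgeR). Of all genes 5.7% were called, 4.39% as higher. The call was lost without GFP sg1 with vehicle (adjusted p = 0.104), GFP sg2 with vehicle (0.0706) or GFP sg2 with IFN-β (0.0723), and with all 20 libraries in 1 fit (0.0816). AXL went from 863 and 900 to 979 and 1097 CPM (adjusted p = 0.207), a call that was made without GFP sg1 with IFN-β (adjusted p = 0.0392). SNAI2 went from 10.7 and 12.9 to 15.005 and 8.01 CPM, with overlapping groups (adjusted p = 0.925, edgeR). ZEB2 was not called either, though it went from 4.67 ± 0.12 to 6.92 ± 0.03 CPM (SD, n = 2). Its log2 fold change ranged from 0.54 to 0.58 with 1 library left out. In ADAR cells IFN-β raised 5 of the 7 genes (background 24.5%, of which 15.5% higher). CDH1 rose by 0.66 ± 0.18 on the log2 scale (SE, adjusted p = 0.00644, edgeR), from 13.7 and 21.97 to 24.3 and 32.0 CPM, yet without ADAR sg1 with vehicle (adjusted p = 0.227) or ADAR sg2 with IFN-β (0.230) it did not pass. ZEB2 rose from 8.41 and 5.59 to 13.9 and 24.4 CPM, by 1.49 ± 0.25 on the log2 scale (SE, adjusted p = 4.59e-05, edgeR). SNAI2 rose from 14.02 and 15.5 to 28.1 and 27.7 CPM, by 0.91 ± 0.21 (SE, adjusted p = 0.00162, edgeR). AXL rose from 1018 and 917 to 1421 and 1440 CPM, by 0.56 ± 0.10 (SE, adjusted p = 5.49e-05, edgeR). ZEB1 rose by 0.54 ± 0.16 (SE, adjusted p = 0.0126, edgeR), which was lost without ADAR sg2 with vehicle (adjusted p = 0.272) or ADAR sg1 with IFN-β (0.0724). In 1 fit of all 20 libraries, CDH1 (adjusted p = 0.0644), AXL (0.0657) and ZEB1 (0.101) did not pass. An epithelial cadherin and 4 mesenchymal genes thus rose under the same treatment. The comparisons in A549 share libraries and are not independent of each other.

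Whether the effect of ADAR KO differed between vehicle and IFN-β was tested by the interaction, which called 0 of 7 genes with edgeR and with DESeq2 (background 5.05%), with 3 at an unadjusted p under 0.05, beside 18.6% of all genes. The largest term belonged to SNAI2, a log2 difference of 1.00 ± 0.31 (SE, adjusted p = 0.0557, edgeR). SNAI2 passed with the sgRNA as a block (adjusted p = 0.0115) and without GFP sg1 with IFN-β (log2 difference 1.49, adjusted p = 0.000747), but fell to 0.59 without GFP sg2 with IFN-β (adjusted p = 0.257), and with all 20 libraries in 1 fit its adjusted p was 0.312. ZEB2 was called without ADAR sg1 with IFN-β (1.24, adjusted p = 0.0353) and had 0.43 without ADAR sg2 with IFN-β (adjusted p = 0.767). With all 8 libraries ZEB2 had 0.91 ± 0.38 (SE, adjusted p = 0.180, edgeR), AXL 0.33 ± 0.14 (adjusted p = 0.183) and CDH1 −0.02 ± 0.25 (adjusted p = 0.987).

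**Figure D5:**
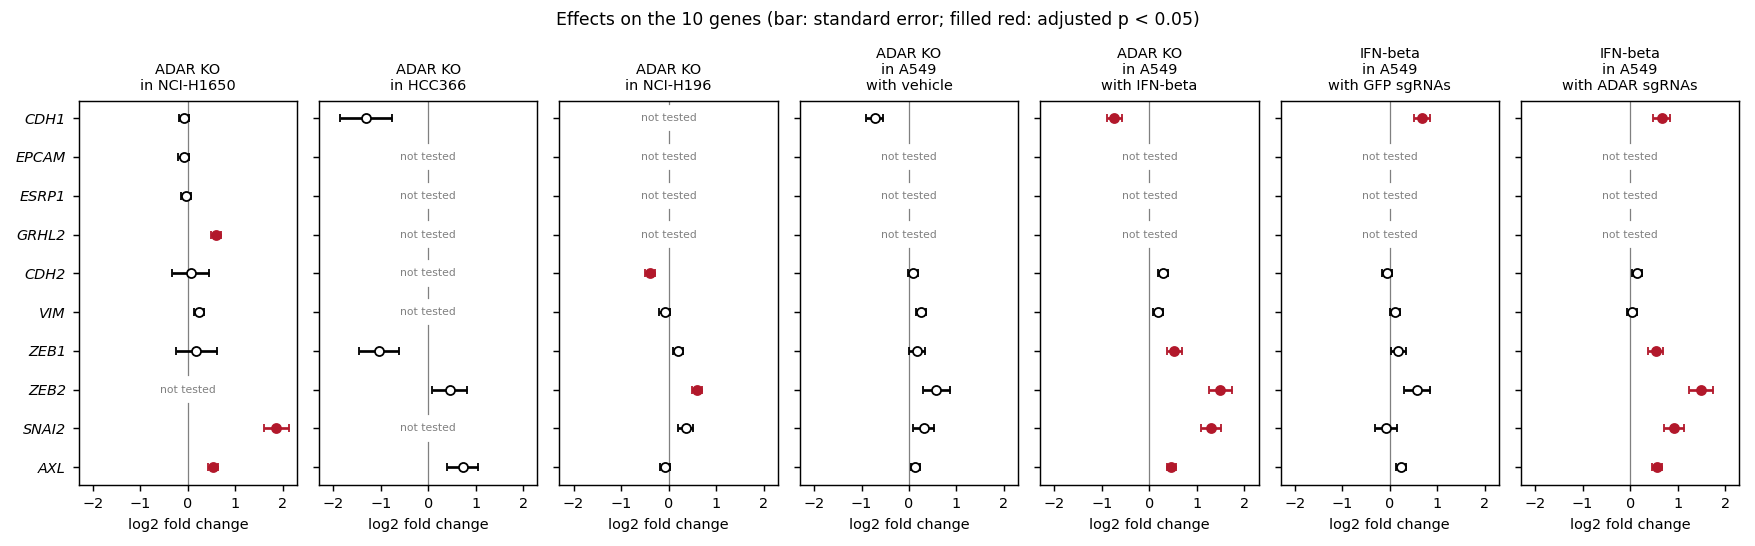
Log2 fold change of each gene (horizontal axes, with standard errors) in 7 comparisons, 1 panel each, by gene (vertical axis). Filled red points have an adjusted p under 0.05 by edgeR and genes too low to test are marked, with 5 red points in each of the 2 panels of A549 cells that compare ADAR cells with IFN-β.

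Related genes in A549 followed several patterns. Under ADAR KO with IFN-β, KRT8 (log2 fold change −0.48, adjusted p = 0.00234, edgeR) and KRT18 (−0.44, adjusted p = 0.00601) fell, 2 of 4 keratins (6.19% of all genes fell and 10.8% rose), and JUP, the junction protein plakoglobin, was the 1 of 13 junction genes that fell. Of 17 matrix and cytoskeleton genes 3 rose and 1 fell, with THBS1, a matrix glycoprotein, rising from 157 to 222 CPM on average and TPM2, a tropomyosin, falling from 570 to 428 CPM. FOXC2, a transcription factor linked to mesenchymal state, rose by a log2 fold change of 1.34 ± 0.16 (SE, adjusted p = 2.89e-07, edgeR), the 1 of 5 tested factors that was called. In the TGF-β pathway 4 of 10 genes rose, among them the ligand TGFB2 (log2 fold change 0.93), and none fell. The interaction was called for FOXC2 (1.56 ± 0.24, SE; adjusted p = 6.56e-05, edgeR), TGFB2, KLF5 and TPM2, among the genes named here. IFN-β raised DSP, the desmosome protein desmoplakin, in GFP cells (135 to 366 CPM on average) and in ADAR cells (116 to 324 CPM).

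Across lines, 0 of the 10 genes passed a test for unequal ADAR KO effects among HCC366, NCI-H1650, NCI-H196 and vehicle-treated A549 (background 4.02%), with 4 at an unadjusted p under 0.05, beside 16.7% of all genes. The smallest adjusted p values were 0.0801 for SNAI2 and 0.114 for ZEB1 (edgeR). DESeq2 called 1, AXL, beside 5.46% of all genes. Without HCC366 ADAR sg1, edgeR called SNAI2, ZEB1, CDH1 and AXL in a fit that called 21.2% of all genes. It called SNAI2 without HCC366 GFP sg2 (0.76% of all genes) or ADAR sg2 (3.01%), and none of the 10 without HCC366 GFP sg1 (2.58%). The SNAI2 rise in NCI-H1650 was therefore not shown to be particular to that line. The study's methods time RNA collection from transduction in the untreated lines and from treatment in A549. Line and handling cannot be told apart in this test. ZEB2, too low to test in NCI-H1650, had a positive log2 fold change in the other comparisons of ADAR with GFP. It was 0.45 in HCC366, 0.60 in NCI-H196, 0.58 in A549 with vehicle and 1.49 with IFN-β. Those in NCI-H196 and in A549 with IFN-β passed the test. The ZEB2 call in NCI-H196 was lost by DESeq2 and with all 20 libraries in 1 fit (adjusted p = 0.400, edgeR). SNAI2 was likewise higher in every comparison of ADAR with GFP that tested it. The share of all genes with 1 direction throughout was not computed.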

How the data were processed

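Ribosomal RNA had been depleted and directional libraries made, per the labels. STAR, HTSeq and DESeq2 are named in the submitters' processing notes with hg19; versions and the strand setting of counting are not given in the sources used here. The deposited files hold raw read counts per Ensembl gene, without normalization, for 20 libraries of 62679 to 19520189 reads on genes. The 5 HTSeq summary lines per file were left out. Symbols matched 55727 of 58233 identifiers (97.4% of reads). Groups came from the sample labels.

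Levels were expressed as CPM, with edgeR. Counts were tested in R 4.3.3 with edgeR 4.0.16 (quasi-likelihood F-test, TMM, filterByExpr by condition, Benjamini-Hochberg adjustment over all genes, threshold 0.05, prior count 0.125 for fold changes). HCC366, NCI-H1650 and NCI-H196 each had their own fit of 4 libraries, A549 a fit of 8, and baseline comparisons and the test among lines a fit of 20. Alternatives were DESeq2 1.42.0, its size factors, no filter, replicate blocks, 1 fit of all libraries, only the 8 GFP libraries, other prior counts and leaving out each library. Scripts were tested on simulated data. Named genes were the 10 genes, ADAR and, per related list and comparison, up to 3 called genes at each end of the fold changes; other baseline levels of related genes were chosen after values were seen. The members and lists were chosen with earlier results of these data known. Opposite-strand genes overlap exons of CDH1, GRHL2, CDH2, VIM, ZEB1, ZEB2, SNAI2 and AXL. The largest share was that of ZEB1-AS1, with 654 reads in all beside 6216 of ZEB1, and with the strand setting unknown such reads cannot be told apart with certainty. Some results on related genes and motifs are not reported here.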

Additional observations from a re-analysis of the deposited data

Results flagged for a closer look

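ZEB1 stood out because its values moved in opposite directions in 2 lines. In HCC366 both ADAR libraries (15.7 and 10.3 CPM) lay below both GFP libraries (24.8 and 27.8 CPM), whereas in NCI-H196 both ADAR libraries (179 and 178 CPM) lay above both GFP libraries (156 and 161 CPM). The 161 CPM came from GFP sg2, where 1 read was worth 15.95 CPM before TMM scaling, so that order rests on few reads. The share of all genes with such opposite values was not computed. The log2 fold changes differed by 1.23. Neither passed the test in its own line, and the difference between this pair of lines was not tested by itself. The test of unequal effects among all 4 lines gave an adjusted p of 0.114 for ZEB1 (edgeR).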

How the results depend on the processing

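With all 20 libraries in 1 fit, the ADAR KO calls numbered 3 for HCC366, 1 for NCI-H1650, 0 for NCI-H196, and 3 for IFN-β-treated A549, and IFN-β called 0 in GFP and 2 in ADAR cells. With no filter on low counts, ADAR KO called 1 in NCI-H196 and 1 in A549 with vehicle, and the interaction called 1. DESeq2 called 0 for ADAR KO in NCI-H196 and 1 for the test among lines. Same-numbered libraries did not deviate together (correlations from −0.25 to 0.05), so the numbers were not taken as pairs. With the replicate block by number, 0 genes were called in NCI-H196 and 1 in the interaction, and with the replicate block by sgRNA 1 in the interaction. Pairing GFP sg1 with ADAR sg2 in HCC366, chosen after seeing the data because of the correlation of −0.25, gave 960 called genes against 300 with the block and 139 without, and 0 of the 4 tested here. The score with prior counts of 0.5 and 5 was 4.64 and 4.32 in NCI-H1650, −3.34 and −2.41 in HCC366, −7.17 and −5.20 in A549, and −10.2 and −7.59 in NCI-H196, in the same order. Directions turned for VIM in NCI-H196 (0.0279 with the block, 0.0430 in 1 fit), AXL in NCI-H196 (0.0016 with the block), VIM under IFN-β in ADAR cells (−0.0191 in 1 fit) and CDH1 in the interaction (0.0072 with no filter), none of them called. The cause of these shifts was not tested.

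Leaving out 1 library gave 0 to 1 called genes for ADAR KO in A549 with vehicle, 0 to 3 in HCC366, 0 to 3 in NCI-H196, 0 to 2 for IFN-β in GFP cells, 0 to 1 in the interaction, 0 to 4 among lines, 4 to 7 for NCI-H196 against A549 and 4 to 8 against HCC366. Log2 fold changes that turned ranged as follows. Under ADAR KO in NCI-H1650, CDH1 ranged from −0.18 to 0.00037, ESRP1 from −0.0934 to 0.0141, CDH2 from −0.13 to 0.23 and ZEB1 from −0.25 to 0.53. In NCI-H196, VIM ranged from −0.21 to 0.32 and AXL from −0.10 to 0.23. In A549 with vehicle, CDH2 ranged from −0.0117 to 0.19 and ZEB1 from −0.0404 to 0.37. Under IFN-β in GFP cells, CDH2 ranged from −0.14 to 0.0245, VIM from −0.0174 to 0.24, ZEB1 from −0.0220 to 0.38 and SNAI2 from −0.57 to 0.33, and in ADAR cells VIM from −0.0367 to 0.10. In the interaction, CDH1 ranged from −0.30 to 0.38 and VIM from −0.20 to 0.0630. At baseline, CDH2 ranged from −0.18 to 0.28 and ESRP1 from 0 to 5.59 for NCI-H196 against A549, and ESRP1 from −3.42 to 5.54 against HCC366 and from −3.91 to 0 for A549 against HCC366.

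Over all genes, ADAR KO in HCC366 called 139, against 903 with no filter, 308 by DESeq2 and 3701 in 1 fit. NCI-H1650 had 1250, against 389 by DESeq2 and 159 in 1 fit, and NCI-H196 had 2513, against 1552, 11 and 98, and 115 with the block. In A549, ADAR KO with vehicle called 19, against 30 with no filter, 4 by DESeq2 and 5 in 1 fit. The 1 fit gave 1087 against 2622 with IFN-β, 531 against 880 and 2067 against 3788 for IFN-β in GFP and ADAR cells, and 164 against 780 for the interaction.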
